A study of Mus musculus with 54 samples.

Results

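Semaphorins are guidance proteins that act on growing axons and synapses, and plexins are the transmembrane receptors that bind them. The 31 protein-coding genes described here are the 20 semaphorins of classes 3 to 7, the 9 plexins and the 2 neuropilins of the mouse. They were chosen by gene name from the 47069 genes of the count table. Secreted class 3 semaphorins mostly signal through a complex of a neuropilin, which binds the ligand, and a class A plexin, which carries the signal inside. Class 4 semaphorins act largely through class B plexins, class 6 semaphorins through class A plexins, and the membrane-anchored Sema7a through Plxnc1 and integrins. Class 5 semaphorins also use class A plexins, though not only these. In the adult brain the family is also known for roles in synapse number, oligodendrocytes and blood vessels.

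The expression of these genes was measured by polyA RNA-seq in cortex, striatum and cerebellum of 10 Mbd5+/GT and 8 WT mice at 8 weeks of age, with 1 library for each mouse and region. The GT allele is a gene-trap insertion in an intron of Mbd5, a methyl-CpG-binding-domain family gene, on a C57BL/6 background. It is a hypomorphic allele carried in every cell, and the controls were littermates from 3 litters, of which litter 2 held 1 WT and 4 Mbd5+/GT mice. Of the Mbd5+/GT mice 5 were female and 5 male, and of the WT mice 5 were female and 3 male. Litter 1 held females only and litter 2 males only, so differences within these litters are within 1 sex. Libraries held 25295973 to 49027399 reads counted on genes, and the lowest count of any member in any library was 44, for Sema3b.

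Some libraries stood apart by regional markers. In the cerebellum, the Hox genes of the hindbrain summed to over 10 CPM (counts scaled to the library size) in 4 of the 18 libraries, from mice M754 and M761 (WT) and M755 and M756 (Mbd5+/GT), and mouse M755 had granule cell markers of 66.9 CPM against a group median of 3681. Mice M756 and M761 had 3253 and 2768 CPM of granule cell markers beside their Hox genes. In the striatum, 5 libraries (mice M754, M755, M756, M761 and M763) had striatal neuron markers below the 2012 CPM of the highest cortex library, at 270 to 1707 CPM. In the cortex, these striatal markers summed to over 1000 CPM in 5 of 8 WT and 1 of 10 Mbd5+/GT libraries. The fits of genotype and of regions were repeated without the cerebellum and striatum libraries named here. The cortex libraries above 1000 CPM were left out only in a fit of genotype in cortex. All contrasts between regions keep them. In tissue samples, fewer cells of a type and less RNA per cell cannot be told apart.

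The start regions of 4 members are shown because these genes had the lower levels in the Mbd5+/GT cortex described below. CpG sites are marked because of the family to which Mbd5 belongs, although the MBD5 protein itself is known not to bind methylated DNA in vitro. Each is the part of the 250 bases before the RefSeq start (GRCm38.p6) that lies in no annotated exon, written 5′ to 3′ with CpG (CG, the same on both strands) in capitals. The Sema3a stretch, chr5:13396534-13396783 on the plus strand, lies inside the annotated span of the gene, and the other stretches lie before the first annotated exon.

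Sema3a: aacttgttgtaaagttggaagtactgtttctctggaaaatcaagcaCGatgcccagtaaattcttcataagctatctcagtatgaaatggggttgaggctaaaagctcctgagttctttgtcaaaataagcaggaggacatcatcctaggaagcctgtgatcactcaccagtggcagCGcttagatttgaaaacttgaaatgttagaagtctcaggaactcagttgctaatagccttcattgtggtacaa

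Sema3d (chr5:12382916-12383165, plus strand): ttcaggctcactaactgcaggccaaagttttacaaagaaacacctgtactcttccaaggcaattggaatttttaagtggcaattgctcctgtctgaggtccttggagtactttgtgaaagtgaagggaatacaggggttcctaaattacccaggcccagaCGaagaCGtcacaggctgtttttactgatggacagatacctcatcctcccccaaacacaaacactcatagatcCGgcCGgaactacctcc

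Sema3e (chr5:14025026-14025275, plus strand): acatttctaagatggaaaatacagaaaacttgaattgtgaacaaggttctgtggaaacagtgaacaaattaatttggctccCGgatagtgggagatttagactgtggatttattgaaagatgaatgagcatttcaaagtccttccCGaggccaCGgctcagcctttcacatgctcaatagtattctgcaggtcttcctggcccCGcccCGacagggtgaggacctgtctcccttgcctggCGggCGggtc

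Sema5b (chr16:35541112-35541144, plus strand): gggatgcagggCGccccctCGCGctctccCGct

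In the whole window of 300 bases, from 250 bases before to 50 after the start, Sema3a held 2 CpGs, and 85.9% of the 32851 promoters in the table held at least as many. Sema3d held 8 (48.6% of promoters), Sema3e 11 (41.4%) and Sema5b 27 (15.5%). Sema3c, whose window lies in an annotated exon, held 42 (3.03%), and Plxna2 held 25 (18.4%). The members shown therefore range from CpG-poor to CpG-rich starts, and 94.6% of all promoters held at least 1 CpG. A promoter was found for 26 members, and none for Plxna1, Plxna4, Sema3b, Sema3f and Sema6a.

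Levels in WT mice are given as TMM CPM per kilobase of exon (RPKM), so that genes of different length can be set side by side. The plot of levels shows every member in the 3 regions.

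**Figure D1:**
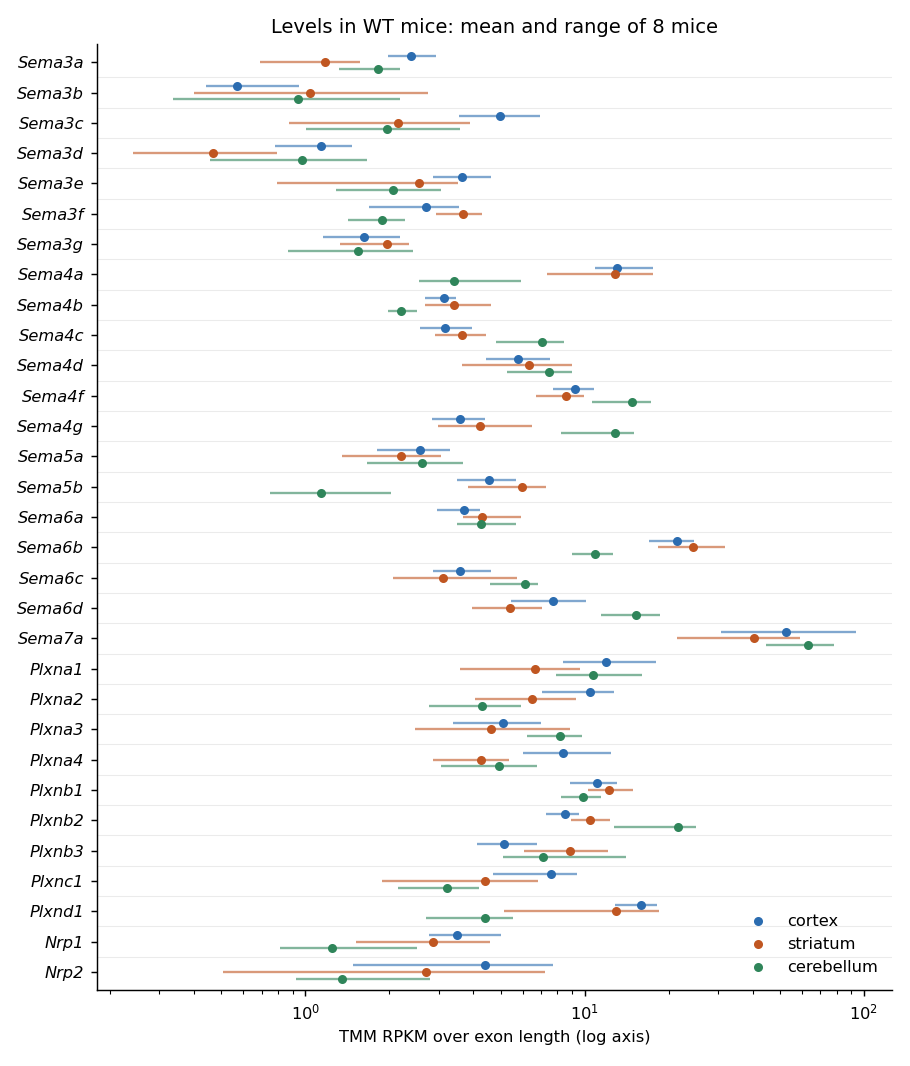
Mean level (points) and range over 8 WT mice (lines) of each member in cortex, striatum and cerebellum, in RPKM on a log axis. Sema7a lies at the top in all regions, and Sema5b, Sema4a and Plxnd1 are lower in cerebellum than in the forebrain regions, while Sema4g and Plxnb2 are higher.

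Among the ligands, Sema7a had the highest level in every region, with means of 52.6 ± 20.8 RPKM in cortex, 40.6 ± 11.2 in striatum and 63.2 ± 10.2 in cerebellum (SD, n = 8). Its range in cortex, 30.8 to 94.1 RPKM, covered that of the other regions in large part. Sema6b, a transmembrane class 6 ligand, was the highest of its class in cortex (21.4 ± 2.23 RPKM, SD, n = 8) and striatum (24.6 ± 4.11). In the cerebellum Sema6d, a class 6 member that binds Plxna1, led the class with 15.3 ± 2.57 RPKM.

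Sema4a was the highest class 4 semaphorin in cortex (13.1 ± 2.47 RPKM, SD, n = 8) and striatum (12.8 ± 3.38), and Sema4f in cerebellum (14.8 ± 2.44). Sema4g stood at 12.9 ± 2.30 in cerebellum and became the highest there when lengths were taken from the longest transcript. The secreted class 3 ligands were low throughout. Their means in WT mice lay between 0.467 RPKM (Sema3d in striatum) and 4.99 RPKM (Sema3c in cortex). Sema3c led class 3 in cortex, Sema3f in striatum (3.68 ± 0.439) and Sema3e in cerebellum (2.06 ± 0.666, n = 8), where Sema3a led by the other length.

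Among the receptors, Plxnd1, which binds Sema3e without a neuropilin, had 16.0 ± 1.77 RPKM in cortex and 12.9 ± 4.61 in striatum (SD, n = 8). Plxnb1, a receptor of Sema4d, led the class B plexins in both forebrain regions with 11.04 ± 1.42 and 12.3 ± 1.62 RPKM, and Plxnb2 in cerebellum with 21.6 ± 4.25. Plxna1 was the highest class A plexin in all regions per exon length (12.0 ± 3.67 RPKM in cortex, n = 8), with 10.7% of its exon sequence overlapping another gene on the opposite strand, but Plxna2 led in cortex and striatum by the longest transcript. Per exon length, Nrp1 lay between 1.25 and 3.49 RPKM and Nrp2 between 1.35 and 4.41 RPKM in the 3 regions. By the longest transcript Nrp1 was at 9.37 RPKM in cortex, 7.71 in striatum and 3.35 in cerebellum, so that its rank among the 31 members in cortex moved from 23 to 12 and the order of the 2 neuropilins in cortex and cerebellum turned over.

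The largest regional differences within the family set the cerebellum apart from the forebrain, as differences over 2-fold did over all genes. In WT mice 22 of the 31 members differed between cerebellum and cortex and 22 between cerebellum and striatum at an adjusted p under 0.05 in edgeR, which is 71% of them in each, where 56.5% and 66.2% of all genes tested did so. Against cortex, 14 were lower in cerebellum and 8 higher, 45.2% and 25.8% of the members, against 28.2% and 28.4% of all genes, and against striatum 11 were lower and 11 higher, 35.5% each, against 34.3% and 32% of all genes. Between cortex and striatum 13 members differed, 41.9% of them, against 49.1% of all genes. Of these 5 were lower in cortex and 8 higher (25.3% and 23.8% of all genes). Differences over 2-fold were found for 11, 11 and 2 members in the 3 contrasts, 35.5%, 35.5% and 6.45% of them, where 24.2%, 29.4% and 10.2% of all genes had them. Of the 31 members, 27 differed in at least 1 contrast, and Sema3b, Sema3g, Sema4d and Sema5a in none. The authors state that the samples of a tissue shared their day of collection, and any effect of the day cannot be told apart from region.

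**Figure D2:**
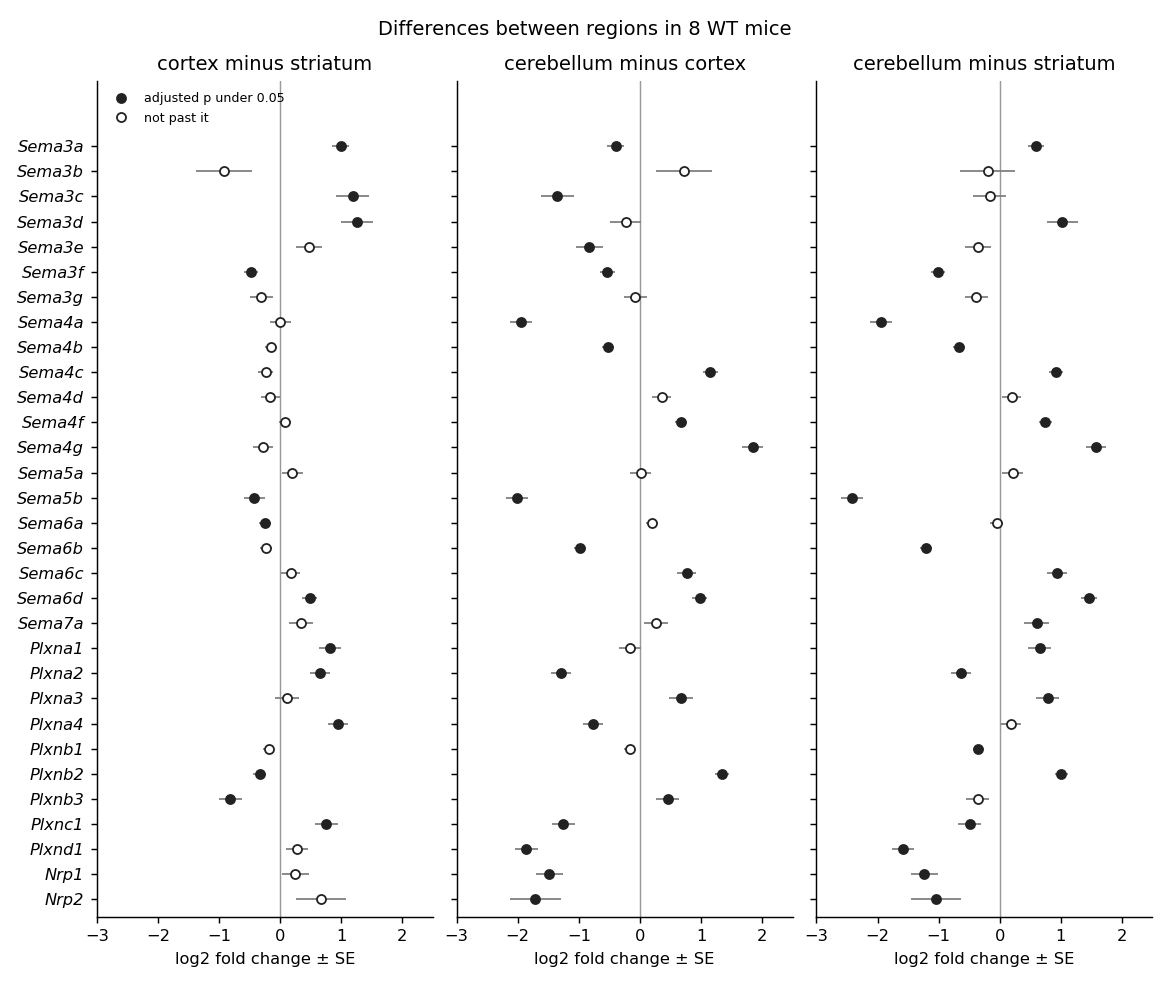
Log2 fold change between regions for each member in 8 WT mice, with its SE (lines). Filled points have an adjusted p under 0.05 and open points do not, and the cerebellum panels hold the largest changes, -2.42 for Sema5b and 1.85 for Sema4g.

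Sema5b, a class 5 transmembrane semaphorin that repels axons through class A plexins, had the largest difference. In WT mice its lowest, median and highest level was 0.749, 1.09 and 2.03 RPKM in cerebellum, 3.49, 4.51 and 5.70 in cortex, and 3.83, 6.40 and 7.25 in striatum. No cerebellum library reached the range of the others. The log2 difference from cortex was -2.01 ± 0.18 (SE, adjusted p = 8.1e-10, edgeR) and from striatum -2.42 ± 0.18 (adjusted p = 3.2e-11). Between cortex and striatum it was -0.42 ± 0.17 (adjusted p = 0.046), and a fit with a replicate block for the mouse gave -0.39 with an adjusted p of 0.053.

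Sema4a and Plxnd1 were lower in cerebellum as well. Sema4a, which also acts on immune cells through other receptors, ran from 2.54 to 5.91 RPKM with a median of 3.06 in cerebellum, and from 10.9 to 17.6 with a median of 12.3 in cortex, so the groups did not overlap. Its log2 difference was -1.95 ± 0.18 from cortex (SE, adjusted p = 1.1e-09, edgeR). Plxnd1 ran from 2.70 to 5.54 RPKM in cerebellum with a median of 4.57, against a median of 15.9 in cortex. In striatum it reached down to 5.14 RPKM, in the library of mouse M761. Its log2 difference was -1.86 ± 0.19 from cortex and -1.59 ± 0.18 from striatum (adjusted p = 5.4e-09 and 5.9e-08).

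The neuropilins fell in cerebellum relative to cortex, Nrp1 by 1.49 and Nrp2 by 1.71 on the log2 scale (SE 0.22 and 0.42, adjusted p = 3.4e-06 and 0.0011, edgeR). The class 3 ligands differed in unequal measure. Sema3c, which both neuropilins bind, was lower in cerebellum than in cortex by a log2 difference of -1.35 ± 0.27 and Sema3e, the ligand of Plxnd1, by -0.83 ± 0.22, while Sema3d did not pass the test (-0.23 ± 0.25, adjusted p = 0.45).

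On the other side, Sema4g and Plxnb2 were higher in cerebellum. Sema4g, a class 4 ligand of Plxnb2, ran from 8.26 to 15.0 RPKM in cerebellum with a median of 13.8, and from 2.83 to 4.39 with a median of 3.51 in cortex. The log2 difference was 1.85 ± 0.17 (SE, adjusted p = 1.3e-09, edgeR). Plxnb2, whose role in the cerebellum includes the migration of granule cell precursors, had a median of 23.4 RPKM there and of 8.43 in cortex, with a log2 difference of 1.35 ± 0.11 (adjusted p = 1.6e-10). Sema4c, a further ligand of this receptor, differed by 1.15 ± 0.12 between cerebellum and cortex, with 7.27% of its exon sequence overlapping another gene on the opposite strand. Sema6d differed by 1.46 ± 0.13 between cerebellum and striatum, Plxnb2 by 1.01 ± 0.11 and Sema4g by 1.57 ± 0.17. Sema3d differed by 1.02 ± 0.26 there (adjusted p = 0.0012).

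In cortex against striatum, Sema3d, Sema3c and Sema3a, all class 3 ligands, had the largest positive differences over all WT libraries. That order did not hold elsewhere. In Mbd5+/GT mice Plxna4 (0.82), Nrp2 (0.81), Sema3c (0.80) and Plxna1 (0.79) had larger log2 differences than Sema3d (0.67) and Sema3a (0.60), and without the striatum libraries low in striatal markers and the cerebellum libraries with Hox genes Nrp2 (1.21), Plxna1 (1.00), Plxna4 (0.99) and Plxnc1 (0.96) stood above Sema3a (0.92) in WT mice. Sema3a was 2.39 ± 0.326 RPKM in cortex and 1.18 ± 0.297 in striatum (SD, n = 8), with a log2 difference of 0.99 ± 0.14 (adjusted p = 1.5e-05, edgeR). Sema3c and Sema3d differed by 1.19 ± 0.27 and 1.26 ± 0.26. Plxna4, the class A plexin that binds Sema3a with Nrp1, was higher by 0.95 ± 0.16, and Plxna1 by 0.82 ± 0.18. Plxnb3 and Sema3f were lower, by log2 differences of -0.82 ± 0.19 and -0.48 ± 0.12. Plxnb3 is a receptor found in oligodendrocytes. Beside it, the sum of the 10 oligodendrocyte markers, of which none was at 0, ran from 3497 to 6738 CPM in the WT cortex and from 6973 to 17618 in the WT striatum, and its part in the difference was not tested.

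Most of these calls were also made in the Mbd5+/GT mice, which share no libraries with the WT mice. There 11 of 13, 21 of 22 and 21 of 22 members had an adjusted p under 0.05 in the same direction. The share of all genes called in both genotypes is not given here, so this repeat is not read as particular to the members. Without the striatum libraries low in striatal markers and the cerebellum libraries with Hox genes, 22 members were called in each cerebellum contrast. All cortex libraries were kept. Between cortex and striatum 19 were called, where Nrp1, Nrp2, Plxna3, Plxnb1, Sema6b and Sema6c were added. The 22 were not the same members. In that reduced set Plxnb3 no longer passed the test between cerebellum and cortex (0.16 ± 0.12, adjusted p = 0.26, edgeR), where Sema4d was added (0.35 ± 0.14, adjusted p = 0.038). Between cerebellum and striatum Plxnc1 went from -0.49 to -0.18 (adjusted p = 0.021 to 0.40, edgeR) and Nrp2 from -1.04 to -0.78 (adjusted p = 0.028 to 0.08), while Sema3e (-0.75 ± 0.15) and Plxnb3 (-0.80 ± 0.13) were added. Without the mice of litter 3, 8 members were called between cortex and striatum. The shares of all genes called in these alternative fits are not given here, so the counts are not read as results about the members. With the mouse as a replicate block, Plxnb3 between cerebellum and cortex (0.42, adjusted p = 0.087) also lost its call.

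Mbd5, the targeted gene, was lower in the Mbd5+/GT mice in all regions. Its mean was 46.0 ± 4.44 CPM in Mbd5+/GT and 65.9 ± 9.56 in WT cortex (SD, n = 10 and 8). The log2 difference in cortex was -0.49 ± 0.05, in striatum -0.51 ± 0.05, and in cerebellum -0.34 ± 0.05 (adjusted p = 0.00012, 9.4e-05 and 0.0091, edgeR). All 11, 10 and 9 alternative fits in these regions kept an unadjusted p under 0.05 for Mbd5 (edgeR or DESeq2). Its adjusted p did not stay under 0.05 in all of them in any region.

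No member passed an adjusted p of 0.05 between the genotypes in any region, where 0.0107%, 0.00539% and 0.00551% of all genes did so in cortex, striatum and cerebellum. With DESeq2, 1 member, Sema3b in cortex, passed, and the share of all genes called by DESeq2 is not given here. At an unadjusted p under 0.05 (nDEGs) there were 7 members in cortex, 22.6% of the 31, against 8.47% of all genes. Of these, 6 were lower and 1 higher in Mbd5+/GT, where 4.51% and 3.96% of all genes were. In striatum 1 member was an nDEG (background 7.44%) and in cerebellum 1 (background 2.75%), and in both it was Sema5b. The median log2 difference of the members was -0.02 in cortex, beside 0.00 over all genes.

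**Figure D3:**
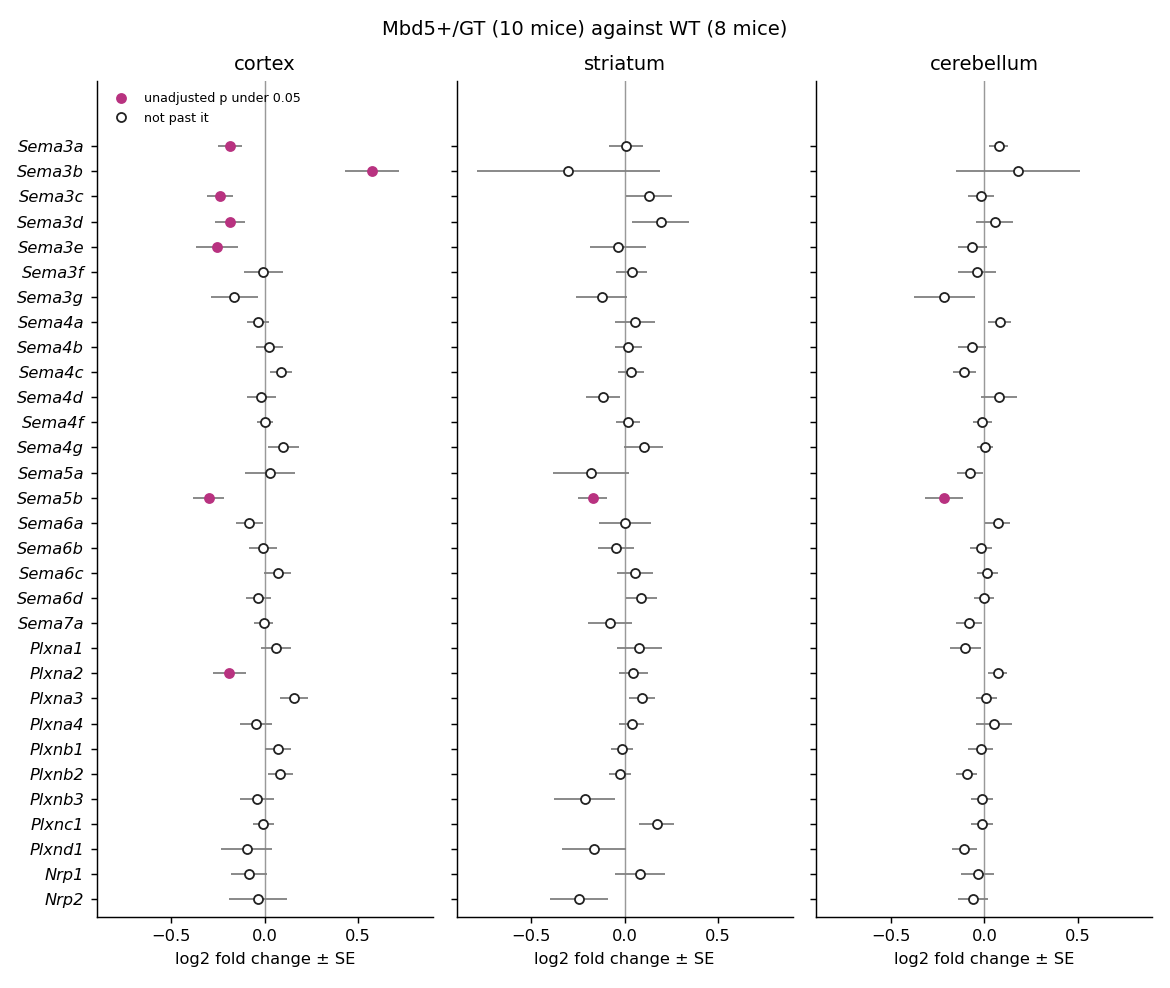
Log2 fold change of each member in Mbd5+/GT (10 mice) against WT (8 mice) in 3 regions, with its SE (lines). Filled points have an unadjusted p under 0.05, 7 in cortex and 1 each in striatum and cerebellum.

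Sema5b was the member that was an nDEG in each of the 3 regions. In cortex its lowest, median and highest level was 19.0, 25.6 and 34.5 CPM in Mbd5+/GT and 24.7, 31.9 and 40.4 CPM in WT. The groups overlapped, with 9 of 10 Mbd5+/GT values under the WT mean and 5 under every WT value. The log2 difference was -0.30 ± 0.08 (unadjusted p = 0.0022, adjusted p = 0.34, edgeR). Over 11 alternative fits it lay between -0.36 and -0.18, with an unadjusted p under 0.05 in 9 and of at most 0.17 (edgeR or DESeq2). Sema5b did not pass with the striatal marker sum as a covariate in place of the surrogate variables. It also did not pass without the cortex libraries high in striatal markers, a fit that left out most of the WT mice. The exact permutation test gave p = 0.033 over all 43758 splits of the mice and 0.042 over the 3500 that kept the litters' numbers (2-sided). Within litters 1, 2 and 3 the difference was -0.52, -0.32 and -0.30, with 1 WT mouse in litter 2.

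In striatum the means of Sema5b were 37.6 ± 9.33 CPM in Mbd5+/GT and 42.1 ± 10.1 in WT (SD, n = 10 and 8), and in cerebellum 7.05 ± 2.77 and 8.03 ± 2.82. The log2 differences were -0.17 ± 0.08 (unadjusted p = 0.037, edgeR) and -0.21 ± 0.10 (unadjusted p = 0.047), with adjusted p-values of 0.64 and 1. The exact permutation tests over all splits gave p = 0.36 and 0.37. Within litters 1, 2 and 3 the differences were -0.01, -0.49 and -0.11 in striatum and -0.25, -0.29 and 0.03 in cerebellum. In the striatum Sema5b did not reach an unadjusted p of 0.05 without the libraries low in striatal markers (-0.15, p = 0.13, edgeR), and in cerebellum it did without the libraries with Hox genes (-0.23, p = 0.027).

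**Figure D4:**
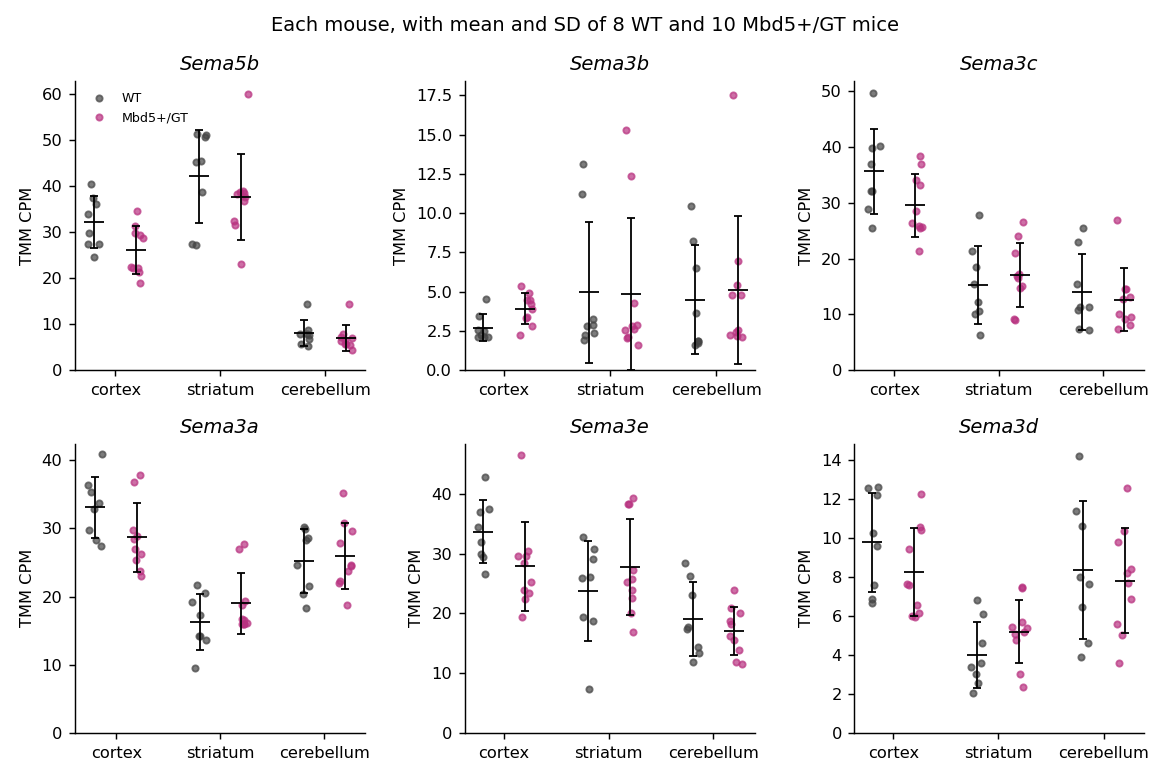
Level in CPM of 6 members in every mouse by region and genotype, with the mean (dash) and SD (bars) of 8 WT and 10 Mbd5+/GT mice. In cortex the Mbd5+/GT mice lie lower for Sema5b, Sema3c, Sema3a, Sema3e and Sema3d and higher for Sema3b, with overlap in each.

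The other members with lower values in the Mbd5+/GT cortex were 4 class 3 ligands and a receptor. Sema3c, which binds Nrp1 and Nrp2, had a lowest, median and highest level of 21.4, 27.4 and 38.3 CPM in Mbd5+/GT and 25.4, 34.5 and 49.6 in WT. Sema3a, a repellent of cortical axons, had 23.1, 27.7 and 37.9 CPM in Mbd5+/GT and 27.4, 33.3 and 40.9 in WT. Both pairs of groups overlapped, with 8 of 10 Mbd5+/GT mice below the WT mean for each. The log2 differences were -0.24 ± 0.07 for Sema3c and -0.18 ± 0.06 for Sema3a (unadjusted p = 0.0024 and 0.011, adjusted p = 0.34 and 0.44, edgeR). The exact permutation p-values were 0.073 and 0.062 over all splits, and 0.083 and 0.044 over those that kept the litters' numbers. Within litters 1, 2 and 3 the difference of Sema3c was -0.17, 0.10 and -0.36 and that of Sema3a -0.26, 0.02 and -0.28.

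Sema3e had means of 27.9 ± 7.47 CPM in Mbd5+/GT and 33.7 ± 5.29 in WT (SD, n = 10 and 8), and mouse M755 had the highest value of all, 46.5 CPM. Its log2 difference was -0.26 ± 0.11 and that of Sema3d -0.19 ± 0.08 (unadjusted p = 0.036 and 0.031, edgeR). Plxna2, a receptor of class 3 and class 6 ligands, had -0.19 ± 0.09 (unadjusted p = 0.046), with 9 of 10 Mbd5+/GT values under the WT mean. The adjusted p-values of Sema3e, Sema3d and Plxna2 were 0.54, 0.52 and 0.57 (edgeR). Of 11 alternative fits, 7, 3 and 2 kept an unadjusted p under 0.05 for them (edgeR or DESeq2), and Plxna2 went as near to no change as -0.05. The exact permutation p-values of Sema3e, Sema3d and Plxna2 were 0.053, 0.19 and 0.15 over all splits and 0.072, 0.18 and 0.18 with the litters' numbers kept.

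Sema3b was the nDEG with higher values. Its lowest, median and highest level in cortex was 2.24, 4.04 and 5.39 CPM in Mbd5+/GT and 2.11, 2.37 and 4.52 in WT. The groups overlapped, and 2 Mbd5+/GT mice lay above every WT mouse. The log2 difference was 0.57 ± 0.14 (unadjusted p = 0.00083, adjusted p = 0.27, edgeR), and the exact permutation p was 0.013 over all splits. Within litters 1, 2 and 3 the difference was 0.62, 0.62 and 0.51. Beside it, the sum of the 7 choroid plexus markers, of which none was at 0, had a median of 300.8 CPM (9.67 to 1331) in Mbd5+/GT and 72.3 CPM (15.7 to 244) in WT cortex, and did not pass the exact permutation test between genotypes (log2 difference 1.48, p = 0.17, Benjamini-Hochberg adjusted p = 0.95 over 39 tests of 13 marker sums in 3 regions). With that sum as a covariate in place of the surrogate variables the difference of Sema3b was 0.36 (unadjusted p = 0.028).

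Marker sums were also compared between the genotypes. The sum of the 8 striatal neuron markers, of which none was at 0, had a median of 563 CPM (262 to 1383) in Mbd5+/GT and 1250 CPM (179 to 2012) in WT cortex, and did not pass the test (-0.63, exact permutation p = 0.22, and 0.19 with the litters' numbers kept, adjusted p = 0.95). The list of 6 Purkinje cell markers, all above 0, summed to a median of 779 CPM (625.4 to 1016) in Mbd5+/GT and 932 CPM (750.7 to 1074) in WT cortex. The log2 difference was -0.22 (exact permutation p = 0.024, and 0.033 with the litters' numbers kept). Most of this sum in cortex was Itpr1, with means of 611.3 CPM in Mbd5+/GT and 720 CPM in WT. It is therefore not read as a measure of Purkinje cells there. The 5 oligodendrocyte precursor markers, of which none was at 0, summed to a median of 208 CPM (161 to 238) in Mbd5+/GT and 233 CPM (199 to 262) in WT cortex. Their log2 difference, in the same direction as that of Sema5b, was -0.17 in cortex, striatum and cerebellum (exact permutation p = 0.051, 0.056 and 0.54, and 0.036, 0.047 and 0.51 with the litters' numbers kept). No marker sum passed an adjusted p of 0.05, and the lowest was 0.62. The part of these marker sums in the results was not tested beyond the covariates given here. With the striatal sum as a covariate in place of the surrogate variables, 4 members (Sema3a, Sema3b, Sema3c and Sema3e) had an unadjusted p under 0.05. In that fit Sema5b had -0.18 (p = 0.088, edgeR). Without the 6 cortex libraries above 1000 CPM, 1 member, Sema3c, had such a p (-0.23, p = 0.042, edgeR). The libraries left out were 5 of the 8 WT and 1 of the 10 Mbd5+/GT, so few WT mice remained in that fit. Fewer calls there cannot be told apart from the smaller WT group. Without surrogate variables or a covariate 3 members had an unadjusted p under 0.05, Sema3b, Sema3c and Sema5b. The shares of all genes in these alternative fits are not given here.

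The genotype effect itself was compared between regions. No member passed at an adjusted p of 0.05 in edgeR or DESeq2, nor did any gene in edgeR. At an unadjusted p under 0.05, 1 member differed between cortex and striatum, where 4.22% of all genes did, and none in the other pairs of regions (1.11% and 2.68% of genes). It was Sema3a, with -0.42 ± 0.19 (unadjusted p = 0.029, adjusted p = 0.99, edgeR). With the mouse as a replicate block it was -0.42 ± 0.19 (p = 0.038), and Sema3d then also passed the unadjusted threshold. Without the striatum libraries low in striatal markers and the cerebellum libraries with Hox genes the difference of Sema3a was -0.34 (p = 0.083, edgeR).

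Of 51 other genes of semaphorin signalling (effectors, small GTPases and their regulators, co-receptors, other neuropilin ligands), 50 were tested. In cortex 2 were nDEGs, both lower: Gsk3b, a kinase, with -0.12 ± 0.05 (unadjusted p = 0.037, edgeR), and Gipc1, an adaptor, with -0.11 ± 0.05 (p = 0.040). In striatum 3 were higher and 1 lower. The adhesion molecule Chl1, a co-receptor, had 0.26 ± 0.09 (unadjusted p = 0.0087, edgeR), Gsk3b 0.12 ± 0.05 and the phosphatase Ptprz1 0.19 ± 0.08. In cerebellum the CRMP family member Dpysl4 was lower (-0.18 ± 0.06, p = 0.0098, edgeR) and the GTPase Rnd1 higher (0.12 ± 0.04, p = 0.013). These shares of the list, 4%, 8% and 4%, stand beside 8.47%, 7.44% and 2.75% of all genes, and none passed an adjusted p of 0.05. Between regions in WT mice 33, 24 and 32 of the 50 differed at an adjusted p under 0.05, for cortex against striatum, cerebellum against cortex and cerebellum against striatum. That is 66%, 48% and 64% of the list, beside 49.1%, 56.5% and 66.2% of all genes.

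Several members varied from mouse to mouse with the summed markers of a cell type. Of 744 relations between a member and a marker list, 126 had an adjusted permutation p under 0.05 for r. These were 15 in cortex, 39 in striatum and 72 in cerebellum. Over the 18 striatum libraries, Sema3b and the summed choroid plexus markers had r = 0.90 and rho = 0.76 (permutation p = 3e-05 and 0.00039, Benjamini-Hochberg adjusted p = 0.0017 and 0.0099 over 744 relations). Without the 2 libraries farthest from the median r was 0.83, and within litters 1 and 3 it was 0.93 in each. In cortex r was 0.70 and rho 0.61 (permutation p = 0.0016 and 0.0085, adjusted p = 0.015 and 0.058), with 0.62 without 2 libraries and 0.48 and 0.71 within these litters. Plxnb3 and the oligodendrocyte markers in striatum had r = 0.83 and rho = 0.81 (permutation p = 3e-05 and 0.00012, adjusted p = 0.0017 and 0.0045), with 0.82 without 2 libraries and 0.94 and 0.92 within litters 1 and 3.

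**Figure D5:**
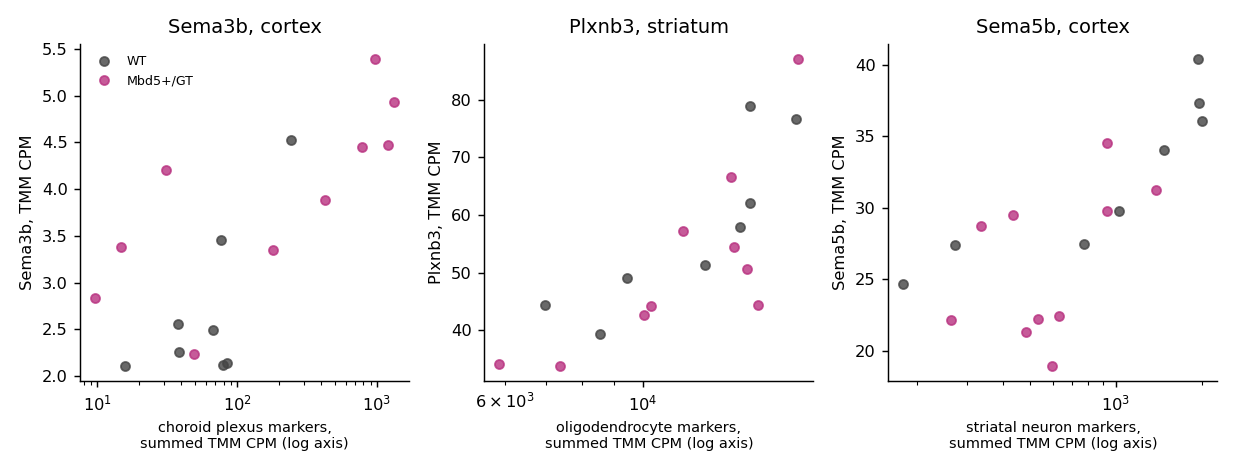
Level in CPM of a member (y axis) against the summed CPM of a marker list (x axis, log scale) in each mouse of both genotypes, for Sema3b and choroid plexus markers in cortex (r = 0.70), Plxnb3 and oligodendrocyte markers in striatum (r = 0.83) and Sema5b and striatal neuron markers in cortex (r = 0.70).

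Sema3g, a class 3 ligand made by endothelial cells, and the endothelial markers had r = 0.72 in cortex, 0.75 in striatum and 0.78 in the 14 cerebellum libraries without Hox genes (permutation p = 0.00078, 0.00037 and 0.00096, adjusted p = 0.0097, 0.0067 and 0.011). Their rho was 0.71, 0.65 and 0.76 (permutation p = 0.0014, 0.0043 and 0.0021). Without the 2 farthest libraries r was 0.72, 0.58 and 0.72. Sema5b and the striatal neuron markers in cortex had r = 0.70 and rho = 0.79 (permutation p = 0.0015 and 0.00023), 0.69 without 2 libraries, and 0.95 and 0.61 within litters 1 and 3. The members and lists of these relations were chosen after their values were seen.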

How the data were processed

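RNA of 3 brain regions of 18 mice was sequenced. Per the labels, the authors aligned reads with STAR 2.4.2 to GRCm38 and deposited raw counts per gene (whole numbers, with no normalization), and FastQC 0.10.1 was used for checks. The strand setting is not given in the sources used here. The 31 members, the other lists and the tests were chosen with earlier results of these data known. The 92 spike-ins were left out.

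A gene was tested if 8 or more libraries held over 4 counts, which all members passed. Genotype was fitted per region with edgeR 4.0.16 (TMM, quasi-likelihood, robust; R 4.3.3) and 4, 4 and 2 surrogate variables in cortex, striatum and cerebellum (sva 3.50.0), regions in the 24 WT libraries, and the genotype effect between regions over 54 libraries. P-values were adjusted by Benjamini-Hochberg over all genes tested. The SE is the size of the log2 change divided by the square root of F. DESeq2 1.42.0, its size factors, other filters, other covariates, a block for the mouse and fits without a litter or without libraries set apart by regional markers were alternatives. Single members were tested by exact permutation on log2(CPM + 0.1), marker relations with 100000 permutations. Fits were tested on simulated data.

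The same mouse gave all 3 regions, and deviations from the group mean correlated by a median of 0.12, 0.22 and 0.08 within mice for cortex and striatum, cortex and cerebellum, and striatum and cerebellum, against -0.02, -0.01 and -0.01 between mice. Within a group no pair of libraries agreed within sampling noise (chi-square per gene at least 8.33). Depth was 25295973 to 49027399 counts per library, so the spread between mice sets the precision.

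Genes were named by rule: members with an unadjusted p under 0.05 by genotype, the 3 largest changes in each direction between regions, the highest of each class, and up to 3 other pathway genes per region. Other members, such as Nrp1 and Plxna4, were added for their roles after their values were seen. Levels are CPM per kilobase of exon from GENCODE (GRCm38), which matched 46488 of the gene identifiers.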

Additional observations from a re-analysis of the deposited data

Results flagged for a closer look

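In 33 of 186 sets of values (1 member in 1 region and genotype, 8 or 10 mice), the highest or lowest mouse stood apart from the others by Dixon's ratio, where chance gives about 5%. The values are CPM.

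The cerebellum of mouse M755 (Mbd5+/GT) gave 15 of the 33, and its library also had 116 CPM of Hox genes and 66.9 CPM of granule cell markers. There 10 members were highest: Nrp1 with 34.41 (others 7.52 to 12.0), Nrp2 with 38.14, Sema4a with 52.98, Sema5a with 87.23, Sema5b with 14.4, Sema6a with 63.99, Sema3b with 17.53, Sema3c with 26.91, Plxnb1 with 130.2 and Plxnb3 with 98.24. In the same library 5 were lowest: Plxnb2 with 59.54 (others 152 to 197), Sema4g with 52.16, Sema4f with 47.68, Sema4c with 19.26 and Plxnd1 with 13.02. The cerebellum of mouse M754 (WT, Hox genes 66.1 CPM) was highest for 6 of the same members, Nrp1 with 24.54, Nrp2 with 33.23, Sema4a with 31.95, Sema5b with 14.39, Sema6a with 49.86 and Plxnb3 with 91.43.

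In striatum, mouse M754 was highest for Sema6a (51.98) and Sema6c (33.89) and mouse M761 for Nrp2 (85.65, others 6.01 to 39.2). Both are among the libraries low in striatal markers. Mouse M753 (Mbd5+/GT) was highest for Sema4c (26.26), Sema4d (75.97) and Sema5b (60.01), and mouse M764 for Sema3f (32.51). In the Mbd5+/GT cortex mouse M755 was highest for Sema3e (46.46) and Sema5a (88.49) and mouse M758 for Sema4g (47.19). Plxna1 was highest in the cerebellum of mouse M763 (Mbd5+/GT, 136.3) and of mouse M762 (WT, 145.4).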

How the results depend on the processing

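The number of nDEGs among the 31 members moved with the processing. The shares of all genes called under the alternative settings are not given here. The counts below therefore do not tell a change of the members from a change over all genes. In cortex it was 7, and 3 without surrogate variables, 3 with terms for litter and sex and 11 with at least 10 counts in every library. It was 4 and 3 with the striatal and choroid plexus marker sums as covariates, and 1 without the cortex libraries high in striatal markers. These last 3 settings, and those without libraries set apart by regional markers, were chosen after seeing the data. The terms for litter and sex and the marker sums took the place of the surrogate variables. Leaving out the cortex libraries high in striatal markers removed most of the WT mice. The 1 in striatum became 0 without surrogate variables, with at least 10 counts, without the libraries labelled as repeated and without those set apart by markers. In the other settings it was not always Sema5b. Sema5b passed in 4 of the 10 alternatives in striatum, Nrp2 in 1 (unadjusted p = 5e-05) and Sema3d in 1 (unadjusted p = 0.041, edgeR or DESeq2). The 1 in cerebellum became 0 without surrogate variables, with 1 fewer, with litter and sex and without litter 2, and 3 (Sema4c, Sema5a and Sema5b) without the libraries with Hox genes. At an adjusted p under 0.05, DESeq2 called 1 member in cortex. For the genotype effect in cortex against striatum the 1 member became 2 with the mouse as a replicate block, 4 without litter 2 and 0 without libraries set apart by markers. Between cortex and striatum 8 of 13 members were called without litter 3, and of the 2 over 2-fold, 0 in Mbd5+/GT mice, 1 without repeated libraries and 4 without libraries set apart by markers.

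Within litter 2, with 1 WT mouse, the cortex differences of Sema3a, Sema3c, Sema3d and Plxna2 turned to 0.015, 0.095, 0.082 and 0.089 (log2), and within litter 3 that of Sema5b in cerebellum to 0.028. The mouse block changed no call of a member other than those of Plxnb3, Nrp2, Sema3d, Sema3g, Sema5b and Sema6b. The causes were not tested. Of 141 alternative values for the nDEG members, 53 kept their direction and lost an unadjusted p under 0.05.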

Other observations

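The 4 class 3 ligands with lower values in the Mbd5+/GT cortex, Sema3a, Sema3c, Sema3d and Sema3e, are neighbours on chromosome 5, within 5346884 bases (chr5:12383385-17730268, GRCm38). Of the 7 other genes tested in that span in cortex, none had an unadjusted p under 0.05, 4 had a log2 difference below 0, and their median was -0.03. In striatum 2 of 7, Cacna2d1 and Pclo, had an unadjusted p under 0.05, and both were higher. These genes were chosen after the values of the members were seen.

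Summed over the 20 semaphorins, levels in WT mice were 151 ± 26.2 RPKM in cortex, 138 ± 14.4 in striatum and 162 ± 11.3 in cerebellum (SD, n = 8), and in Mbd5+/GT mice 152 ± 21.02, 142 ± 15.2 and 161 ± 10.7 (SD, n = 10). The 9 plexins summed to 84.1 ± 12.6, 70.9 ± 7.30 and 74.3 ± 7.43 RPKM in WT. The neuropilins summed to 7.90 ± 1.97 in cortex and 2.597 ± 1.18 in cerebellum.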
